A study of Homo sapiens with 18 samples.

Results

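FOXA1, FOXA2 and FOXA3 (the FOXA forkhead genes) and SOX17, SOX7 and SOX18 (the SOXF genes) were followed through foregut endoderm made from human embryonic stem cells. The genes were taken from the deposited count table by symbol, which gave 6 of its 35025 genes, and all 6 passed the filter on low counts that left 15531 genes for testing. Bulk RNA-seq had been made from 18 libraries in 6 groups of 3, all from 1 wild type line, H1 embryonic stem cells differentiated to foregut endoderm. Untreated cells were taken at day 6 and at day 9. Retinoic acid (RA), a signal made from vitamin A, was given at 2 µM for 24 h from day 5 to day 6, and these cells were taken at day 6 or, without further addition, at day 9. CHIR99021, an inhibitor of the kinase GSK3 that turns on WNT signalling, was given at 2 µM with the growth factor BMP4 at 50 ng/mL for 72 h from day 6 to day 9, either without RA or after it. Per the labels, this pair stands in for signals that induce respiratory fate. The medium of the untreated cells is not described in the labels used here, nor whether each replicate was a culture of its own. The p-values therefore measure only how far these libraries spread, which may be technical.

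FOXA proteins are forkhead transcription factors that bind DNA in closed chromatin and open it for other factors, and they are needed for gut-tube endoderm and for the liver, pancreas and lung that form from it. SOXF proteins are high-mobility-group transcription factors. SOX17 is a defining factor of definitive endoderm, and SOX7 and SOX18 are best known from endothelium, where SOX17 also acts.

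In the RefSeq annotation of GRCh38.p14, FOXA1 lies on chromosome 14 (37589552 to 37595249, minus strand), FOXA2 on chromosome 20 (22580998 to 22585490, minus strand) and FOXA3 on chromosome 19 (45864326 to 45873797, plus strand). Promoter sequence was at hand for FOXA1 and FOXA3, and both are shown because the FOXA genes rose with RA at day 6, each as the stretch that holds a match to a motif searched on both strands. Positions count from the annotated start. In the FOXA1 stretch (chr14:37595349-37595499, minus strand) capitals mark the reverse complement of the forkhead motif TGTTTGC, whose first base is at -235, and in the FOXA3 stretch (chr19:45864284-45864313, plus strand) they mark a TATAAA motif that begins at -30.
FOXA1: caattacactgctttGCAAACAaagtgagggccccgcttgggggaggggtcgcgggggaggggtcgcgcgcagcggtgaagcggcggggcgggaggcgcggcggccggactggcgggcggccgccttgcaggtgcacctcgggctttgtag
FOXA3: gggtgtcccggcTATAAAgcgtggccgcct
Motifs were counted over whole promoters, all of the same length and longer than the stretches printed. Of 35116 such RefSeq promoters, 3.89% held TGTTTGC and 11.5% held TATAAA. The half-site AGGTCA, which nuclear receptors such as the RA receptors bind, had 1 match in the FOXA3 promoter (minus strand, at -239) and none in that of FOXA1, and 13.8% of promoters held it. The forkhead motif TGTTTAC, the GATA motif AGATAA and the SOX core ACAATG had no match in either promoter, and 3.42%, 10.3% and 10.8% of promoters held them. No overlap between these motifs was found in the stretches printed. A match is a description of the letters only.

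Library totals ran from 5792269 to 25371403 counts. Untreated and treated libraries stood apart in a way that the labels do not name. With untreated day 6 libraries 1 and 3 left out, 28 genes were at least 10-fold higher in the untreated libraries and 47 in the treated ones. Pseudogenes made up 77.3% of these, while they made up 3.65% of the 13723 genes with 2 or more counts per 1000000 counts (CPM). The untreated day 6 libraries 1 and 3 lay 27.0% and 35.4% of the way from the other untreated libraries to the treated ones on the mean difference between these gene sets, called read kind here. No FOXA or SOXF gene was in either set. RA at day 6, RA at day 9, CHIR99021 and BMP4 without RA and both interactions set libraries of different read kind against each other. Untreated day 9 against day 6 did so in part, through untreated day 6 libraries 1 and 3. Results with read kind as a covariate are given beside those of the 6 genes. With the covariate, 720 genes were called with RA at day 6 and 761 at day 9, in place of 7571 and 10105. On the same scale the untreated day 9 libraries lay at -1.80% to 2.43% and the treated libraries at 92.9% to 105.7%. The gene sets were chosen by this split, so these positions, and a shared read kind among treated libraries, follow from the choice. Only untreated day 6 libraries 1 and 3 had no part in it. Read kind is a name for this scale and not a property of the reads given by the labels. For RA at day 6, RA at day 9, CHIR99021 and BMP4 without RA and the interaction with these signals, read kind closely followed treatment. Calls lost or kept and signs turned there with the covariate therefore cannot tell read kind from treatment. Epithelial markers were high in every group, with EPCAM at group means of 272 to 423 CPM. Cardiac markers summed to 1365 to 1982 CPM in the day 9 RA libraries and to 43.0 to 44.4 CPM after RA then CHIR99021 and BMP4. In such bulk libraries fewer cells of a type and less RNA per cell cannot be told apart.

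FOXA1 acts together with FOXA2 in liver and lung. Levels below are CPM after library scaling, in the order of replicates 1, 2 and 3. FOXA1 stood at 162, 173 and 145 CPM in untreated day 6 libraries and at 328, 324 and 309.6 CPM after RA. At day 9 it stood at 35.7, 34.2 and 36.3 CPM untreated, 249, 253 and 278 CPM after RA, 26.4, 31.5 and 30.7 CPM with CHIR99021 and BMP4, and 228, 217 and 226 CPM with RA then CHIR99021 and BMP4. Every RA library was above every library without RA, at both days. Groups that do not overlap were common: 57.2% of all tested genes had no overlap between the groups of RA at day 6. At day 9 the share was 65.6% for RA alone against untreated, and 56.2% between the groups given CHIR99021 and BMP4. The share over all day 9 groups at once was not counted.

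FOXA2, which is needed for node, notochord and foregut endoderm, stood at 91.3, 89.6 and 95.2 CPM in untreated day 6 libraries and at 226, 239 and 239 CPM after RA. At day 9 its levels were 37.2, 31.3 and 33.7 CPM untreated and 119, 96.1 and 97.0 CPM after RA. With CHIR99021 and BMP4 they were 17.8, 27.4 and 11.5 CPM without RA and 170.3, 175 and 169 CPM after it. The widest relative spread of FOXA2 was thus among the libraries given CHIR99021 and BMP4 without RA, and no library of any RA group overlapped one without RA at the same day, as for 56.2% of all genes between the 2 groups given CHIR99021 and BMP4.

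FOXA3, best known from liver and gut, had the narrowest range of group means of the 3 FOXA genes. It stood at 22.7, 21.8 and 18.8 CPM in untreated day 6 libraries and at 28.9, 31.1 and 28.2 CPM after RA. At day 9 it stood at 13.3, 15.5 and 10.02 CPM untreated, 25.5, 23.4 and 28.1 CPM after RA, 14.5, 14.4 and 14.6 CPM with CHIR99021 and BMP4, and 16.4, 19.4 and 14.9 CPM with both. The last 2 groups lay next to each other, and only the group with RA alone stood clear of the other day 9 groups.

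SOX17 differed by day and, at day 9, by the combination of signals. It stood at 26.9, 24.0 and 17.1 CPM in untreated day 6 libraries and at 21.0, 21.0 and 22.7 CPM after RA. At day 9 it stood at 2.61, 3.40 and 4.49 CPM untreated, 3.85, 2.09 and 1.89 CPM after RA, 4.05, 5.65 and 5.03 CPM with CHIR99021 and BMP4, and 14.5, 16.2 and 15.2 CPM with RA then CHIR99021 and BMP4. Only the last day 9 group came near the day 6 levels, and its libraries lay above all other day 9 libraries. The groups with RA and with or without CHIR99021 and BMP4 did not overlap for 69.3% of all genes, and the share against all other day 9 groups was not counted.

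SOX7 and SOX18 were low. In the same annotation SOX17 (54457935 to 54460892, plus strand) and SOX7 (10723768 to 10730511, minus strand) lie on chromosome 8, and SOX18 on chromosome 20 (64047582 to 64049639, minus strand), and all 6 genes are protein-coding. SOX7 stood at 5.76, 9.87 and 5.15 CPM in untreated day 6 libraries and at 3.64, 1.47 and 3.11 CPM after RA, and at day 9 at 1.13, 3.40 and 4.32 CPM untreated, 1.44, 0.731 and 0.778 CPM after RA, 2.46, 2.11 and 4.15 CPM with CHIR99021 and BMP4, and 1.58, 0.904 and 0.827 CPM with both. SOX18 stood at 1.74, 2.23 and 2.04 CPM in untreated day 6 libraries and at 0.552, 0.327 and 1.13 CPM after RA. At day 9 SOX18 stood at 0.563, 0.851 and 1.04 CPM untreated, 0.802, 0.418 and 0.889 CPM after RA, 1.74, 1.33 and 2.33 CPM with CHIR99021 and BMP4, and 1.58, 0.904 and 1.24 CPM with both. The 3 libraries of a group held 23 to 153 counts of SOX7 and 17 to 81 of SOX18 in all, so their folds carry wide intervals. SOX7 overlaps SOX7-AS1 by 1221 bases, and whether counting used strand is not given in the sources used here; SOX7-AS1 itself held 3 counts over all 18 libraries.

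**Figure D1:**
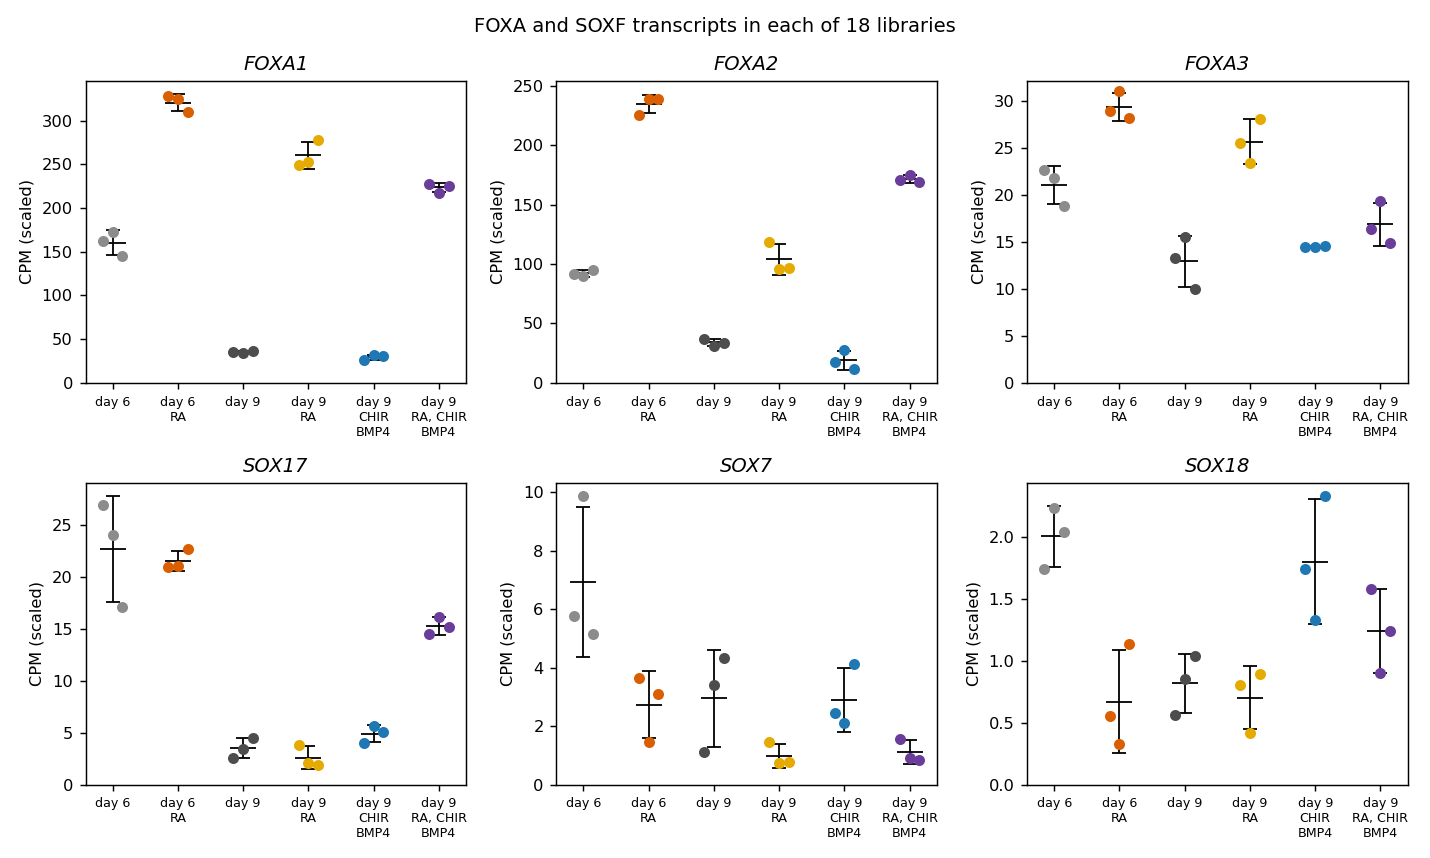
Scaled CPM of each of the 6 genes (vertical axis, linear from 0, its own scale per panel) in the 6 groups (horizontal axis). Points are libraries, and bars are the group mean and standard deviation (n = 3). FOXA1 and FOXA2 are high in the groups given RA, while SOX17 at day 9 is high only after RA then CHIR99021 and BMP4 (14.5 to 16.2 CPM).

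With RA at day 6 the FOXA genes rose and SOX7 and SOX18 fell, while SOX17 did not pass the test. FOXA1 rose 2.01-fold (160.1 ± 14.3 to 320.5 ± 9.55 CPM, SD, n = 3; log2 fold change 1.004 ± 0.07, SE; edgeR adjusted p = 8.2e-11). FOXA2 rose 2.55-fold (log2 1.35 ± 0.17, adjusted p = 1.2e-05) and FOXA3 1.40-fold (log2 0.49 ± 0.12, adjusted p = 0.00208). A gene counts as called, here and below, at an adjusted p below 0.05 over all 15531 genes, and 5 of the 6 genes were called where 48.7% of all genes were. SOX7 was 2.56-fold lower (log2 -1.36 ± 0.43, adjusted p = 0.0141) and SOX18 3.23-fold lower (log2 -1.69 ± 0.45, adjusted p = 0.00211). SOX17 stood at 22.7 ± 5.08 CPM without RA and 21.5 ± 0.961 CPM with it, and the 95% interval of its log2 change ran from -0.41 to 0.28. With read kind as a covariate FOXA1 remained called (log2 1.56, adjusted p = 0.00106), and FOXA2 (0.99, adjusted p = 0.532), FOXA3 (0.80, adjusted p = 0.448) and SOX18 (-1.05, adjusted p = 0.773) did not. In that fit the log2 changes of SOX7 (1.32, adjusted p = 0.695) and SOX17 (0.65, adjusted p = 0.685) turned sign. FOXA3 also did not pass without the untreated libraries 1 and 3 (0.42, adjusted p = 0.0776). The call of SOX7 was lost without untreated library 2 (-1.04, adjusted p = 0.0736) or RA library 2 (-0.998, adjusted p = 0.082).

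At day 9, 3 days after RA was withdrawn, the 3 FOXA genes were higher than in untreated cells and no SOXF gene was called. FOXA1 was 7.34-fold higher (35.4 ± 1.07 against 260.2 ± 15.5 CPM, log2 2.88 ± 0.08, adjusted p = 5.3e-18). FOXA2 was 2.996-fold higher (34.1 ± 2.96 against 104 ± 12.8 CPM, log2 1.58 ± 0.19, adjusted p = 2.6e-06). FOXA3 was 1.97-fold higher (12.9 ± 2.75 against 25.7 ± 2.36 CPM, log2 0.98 ± 0.13, adjusted p = 6.0e-07). These 3 calls stand beside 65.1% of all genes called. SOX17 had a log2 change of -0.36 (adjusted p = 0.284), SOX7 of -1.35 (adjusted p = 0.057) and SOX18 of -0.05 (adjusted p = 0.94). With read kind as a covariate the rise of FOXA1 remained called (log2 3.56, adjusted p = 2.4e-06), and those of FOXA2 (1.13, adjusted p = 0.538) and FOXA3 (1.36, adjusted p = 0.24) did not. The log2 changes of SOX17 (0.53, adjusted p = 0.803), SOX7 (1.93, adjusted p = 0.607) and SOX18 (0.76, adjusted p = 0.871) turned sign with it. Without the covariate, SOX7 passed when untreated library 1 was left out (log2 -2.03, adjusted p = 0.00166), with DESeq2 (-1.51, adjusted p = 0.00951), with upper quartile scaling (-1.44, adjusted p = 0.0429) and in a fit of these 6 libraries alone (-1.44, adjusted p = 0.0472). Cardiac markers summed to 240 to 300 CPM untreated and 1365 to 1982 CPM after RA, where 10 of 14 rose and 2 fell, and mesenchyme markers to 914 to 1444 and 4318 to 5606 CPM, where 7 of 12 rose and 1 fell. Their part in the FOXA differences was not tested.

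The response to RA differed between the days for 3 of the 6 genes, where 50.9% of all genes were called for this interaction. For FOXA1 the log2 response was 1.87 ± 0.11 larger at day 9 (adjusted p = 2.7e-12, and 2.00 with the covariate, adjusted p = 1.3e-11). For FOXA3 it was 0.49 ± 0.18 larger (adjusted p = 0.0251, and 0.57 with the covariate, adjusted p = 0.0397), which was lost with upper quartile scaling (0.41, adjusted p = 0.0575) and without untreated day 6 library 1 (adjusted p = 0.067), untreated day 9 library 3 (0.0708) or day 9 RA library 3 (0.0721). For SOX18 it was 1.65 ± 0.67 larger (adjusted p = 0.0423), a call that did not hold in most alternatives. It ended with the covariate (1.81, adjusted p = 0.0592), DESeq2 (1.61, adjusted p = 0.0813), no filter (1.64, adjusted p = 0.0597), upper quartile scaling (1.56, adjusted p = 0.0529), a fit of the 4 groups alone (1.63, adjusted p = 0.056) and untreated day 6 libraries 1 and 3 left out (1.82, adjusted p = 0.0727). It also ended without any one of untreated day 6 library 2 or 3, day 6 RA library 1 or 2, untreated day 9 library 1 or day 9 RA library 1 or 3 (adjusted p = 0.0584 to 0.158). FOXA2 had a difference of 0.23 with a 95% interval from -0.31 to 0.78, so the 2.55-fold and 2.996-fold responses were not shown to differ. With the covariate the differences were 0.14 for FOXA2 (adjusted p = 0.745), -0.12 for SOX17 (0.818) and 0.61 for SOX7 (0.556). The untreated level of FOXA1 itself fell 4.51-fold from day 6 to day 9, while the level after RA fell 1.23-fold.

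Without treatment every one of the 6 genes fell from day 6 to day 9. SOX17 was 7.05-fold lower (22.7 ± 5.08 to 3.50 ± 0.944 CPM, log2 -2.82 ± 0.22, adjusted p = 2.6e-10). FOXA1 was 4.51-fold lower (log2 -2.17 ± 0.08, adjusted p = 2.7e-15), FOXA2 2.66-fold (-1.41 ± 0.19, adjusted p = 2.1e-05) and FOXA3 1.61-fold (-0.69 ± 0.13, adjusted p = 1.7e-04). SOX7 was 2.83-fold lower (-1.50 ± 0.44, adjusted p = 0.00982) and SOX18 2.78-fold (-1.47 ± 0.41, adjusted p = 0.00451). Of all genes, 46.9% were called and 22.9% were called lower, and the libraries of the 2 groups did not overlap for any of the 6 genes, against 50.9% of all genes without overlap. All 6 calls remained with read kind as a covariate. Without untreated day 9 library 1, those of SOX7 (-0.81, adjusted p = 0.0963) and SOX18 (-1.07, adjusted p = 0.0814) were lost.

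After RA, 4 of the 6 fell over the same days, where 58.8% of all genes were called and 30.3% called lower. SOX17 was 8.62-fold lower at day 9 (21.5 ± 0.961 to 2.61 ± 1.08 CPM, log2 -3.11 ± 0.25, adjusted p = 3.8e-11). FOXA2 was 2.26-fold lower (-1.18 ± 0.17, adjusted p = 2.5e-05), and FOXA1 only 1.23-fold (-0.30 ± 0.07, adjusted p = 9.4e-04). SOX7 was 2.80-fold lower (-1.49 ± 0.61, adjusted p = 0.0363), a call that ended with no filter (-1.48, adjusted p = 0.0823) and without day 6 RA library 1 or 3 or day 9 RA library 2 or 3 (-1.19 to -1.38, adjusted p = 0.0841 to 0.138). FOXA3 (-0.20, adjusted p = 0.158) and SOX18 (0.17, adjusted p = 0.797) did not pass, though FOXA3 did with upper quartile scaling (-0.28, adjusted p = 0.0479). This comparison lies within 1 read kind.

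With CHIR99021 and BMP4 but no RA, FOXA1 and FOXA2 fell and SOX17 and SOX18 rose. FOXA2 was 1.92-fold lower (34.1 ± 2.96 to 18.9 ± 7.99 CPM, log2 -0.94 ± 0.20, adjusted p = 0.00169). FOXA1 was 1.202-fold lower (-0.27 ± 0.08, adjusted p = 0.0142). SOX18 was 2.60-fold higher (0.817 ± 0.239 to 1.80 ± 0.504 CPM, 1.38 ± 0.39, adjusted p = 0.00464), and SOX17 1.53-fold (3.50 ± 0.944 to 4.91 ± 0.807 CPM, 0.61 ± 0.23, adjusted p = 0.0397) with overlapping libraries. These 4 calls stand beside 42.8% of all genes called. FOXA3 (0.16, adjusted p = 0.349) and SOX7 (0.34, adjusted p = 0.585) did not pass. None of the 4 calls remained with read kind as a covariate, which closely followed treatment in this comparison. There the log2 changes of FOXA2 (-1.35, adjusted p = 0.535), SOX17 (1.41, adjusted p = 0.473) and SOX18 (2.11, adjusted p = 0.631) kept their sign and were larger in size, that of FOXA1 turned (0.36, adjusted p = 0.68), and FOXA3 (0.50, adjusted p = 0.779) and SOX7 (3.30, adjusted p = 0.397) did not pass. Fitted on these 6 libraries alone, FOXA1 (-0.26, adjusted p = 0.0534), FOXA2 (-0.91, adjusted p = 0.0683) and SOX17 (0.58, adjusted p = 0.0822) had like changes but did not pass. On TPM FOXA1 did not pass (-0.02, adjusted p = 0.873) and FOXA3 did (0.42, adjusted p = 0.00757). Without untreated day 9 library 1, SOX17 (log2 0.30, adjusted p = 0.438), SOX18 (0.98, adjusted p = 0.11) and FOXA1 (-0.26, adjusted p = 0.0533) did not pass. FOXA1 also did not pass without library 1 of the treated group (adjusted p = 0.0976), nor SOX17 without untreated library 2 (0.0522) or treated library 2 or 3 (0.105 each).

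After RA, FOXA2 and SOX17 rose with the same pair of signals and FOXA1 and FOXA3 fell. SOX17 was 6.10-fold higher than after RA alone (2.61 ± 1.08 to 15.3 ± 0.845 CPM, log2 2.61 ± 0.25, adjusted p = 8.1e-10), and FOXA2 was 1.66-fold higher (104 ± 12.8 to 171 ± 3.13 CPM, 0.73 ± 0.17, adjusted p = 0.00159). FOXA3 was 1.52-fold lower (25.7 ± 2.36 to 16.9 ± 2.29 CPM, -0.60 ± 0.12, adjusted p = 1.7e-04). FOXA1 was 1.16-fold lower (-0.22 ± 0.07, adjusted p = 0.0104), which did not pass with upper quartile scaling (-0.13, adjusted p = 0.108) or without day 9 RA library 3 (-0.17, adjusted p = 0.0674). SOX7 (0.37, adjusted p = 0.629) and SOX18 (0.91, adjusted p = 0.0682) did not pass, though SOX18 did with upper quartile scaling (0.99, adjusted p = 0.0463) and without library 2 of the group with both (1.08, adjusted p = 0.043). Of all genes 64.4% were called, so the 4 calls here are at the background share. Both groups are of 1 read kind. Cardiac and mesenchyme markers, which summed to 1365 to 1982 and 4318 to 5606 CPM after RA alone, were at 43.0 to 44.4 and 651 to 680.5 CPM after RA then CHIR99021 and BMP4, and their part in these differences was not tested.

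The 2 day 9 groups given CHIR99021 and BMP4 differed by earlier RA and were of 1 read kind. FOXA2 was 9.501-fold higher with RA (18.9 ± 7.99 against 171 ± 3.13 CPM, log2 3.25 ± 0.19, adjusted p = 3.2e-09) and FOXA1 7.58-fold (29.5 ± 2.73 against 224 ± 5.50 CPM, 2.92 ± 0.08, adjusted p = 8.2e-18). SOX17 was 3.13-fold higher (4.91 ± 0.807 against 15.3 ± 0.845 CPM, 1.64 ± 0.19, adjusted p = 1.8e-07). SOX7 was 2.48-fold lower (-1.31 ± 0.49, adjusted p = 0.0327), a call that ended with no filter (-1.30, adjusted p = 0.077), without library 3 of the group without RA (adjusted p = 0.192), or without library 2 (0.102) or 3 (0.0857) of the group with RA. FOXA3 (0.22, adjusted p = 0.157) and SOX18 (-0.52, adjusted p = 0.205) did not pass, and 43.3% of all genes were called. FOXA1, FOXA2 and SOX17 kept their calls in every alternative that was run for this comparison.

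Whether RA acted differently with and without CHIR99021 and BMP4 was tested as an interaction over the 4 day 9 groups, which called 53.4% of all genes. The log2 response to RA was 2.00 ± 0.34 larger with the pair of signals for SOX17 (adjusted p = 3.1e-05), from -0.36 without them to 1.64 with them. It was 1.67 ± 0.27 larger for FOXA2 (1.58 to 3.25, adjusted p = 8.6e-05) and 0.76 smaller for FOXA3 (-0.76 ± 0.18; 0.98 to 0.22, adjusted p = 0.00104). For FOXA1 the responses of 2.88 and 2.92 differed by 0.05 with a 95% interval from -0.18 to 0.28. SOX7 (0.03, adjusted p = 0.976) and SOX18 (-0.47, adjusted p = 0.523) did not pass. With read kind as a covariate the differences were 1.16 for SOX17 (adjusted p = 0.495), 2.10 for FOXA2 (adjusted p = 0.2) and -1.13 for FOXA3 (adjusted p = 0.331), and no call remained. That of FOXA1 was -0.61 (adjusted p = 0.309), of the other sign and outside the interval above, and those of SOX7 (-3.10, adjusted p = 0.351) and SOX18 (-1.24, adjusted p = 0.759) did not pass either.

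**Figure D2:**
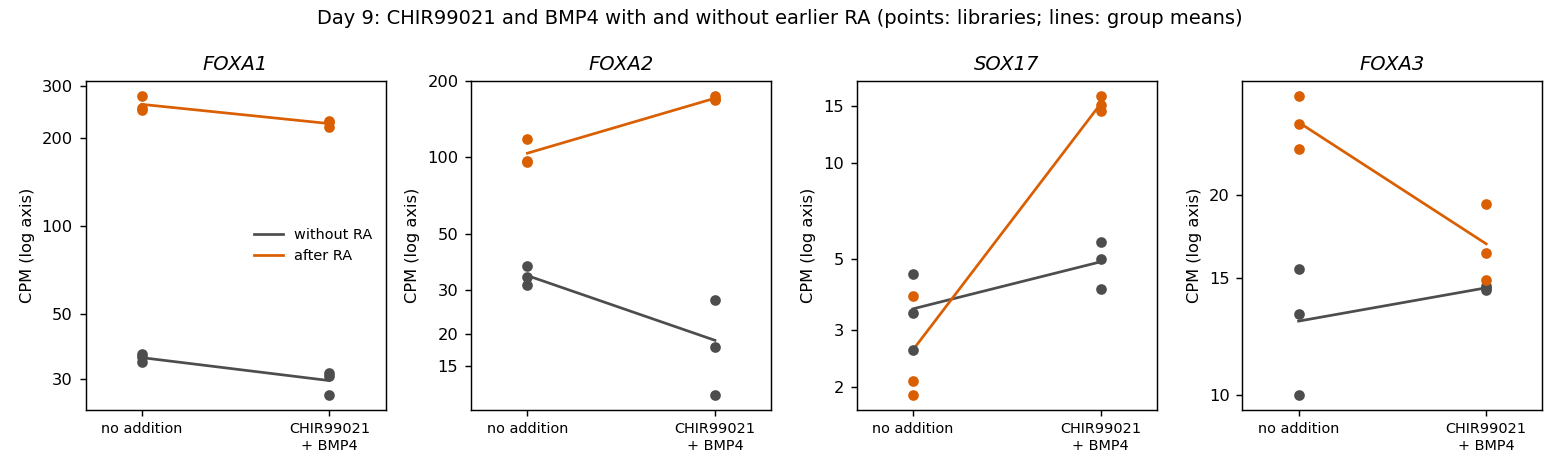
CPM at day 9 (vertical axis, log scale, its own range per panel) without addition and with CHIR99021 and BMP4 (horizontal axis), for cells without RA (grey) and after RA (orange). Points are libraries and lines join group means. The FOXA1 lines run side by side, the FOXA2 and SOX17 lines open toward CHIR99021 and BMP4 after RA, and the FOXA3 lines close.

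**Figure D3:**
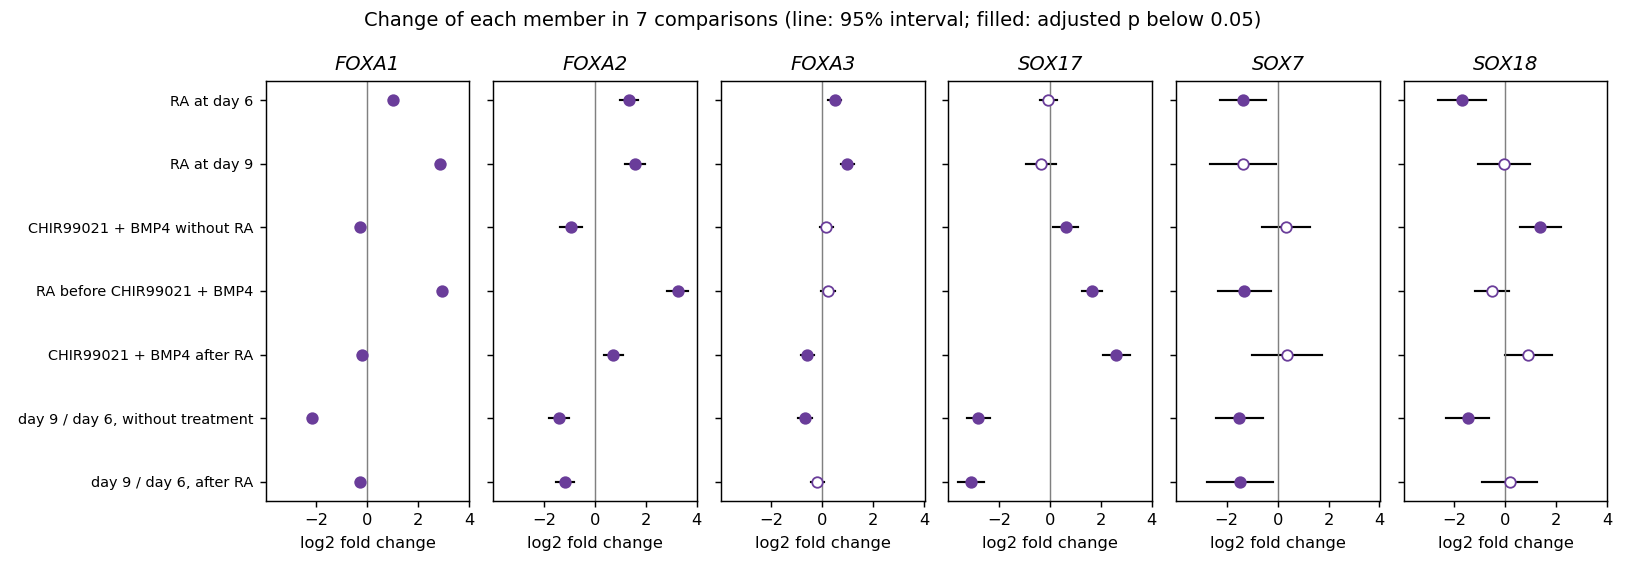
Log2 fold change of each of the 6 genes (horizontal axis) in 7 comparisons (rows), with 95% intervals as lines. Filled points have an edgeR adjusted p below 0.05, and intervals of SOX7 and SOX18 are wider than those of the FOXA genes.

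The order of the 6 groups differed between genes. For FOXA1 all 5 steps between neighbours passed the test, from day 6 RA down through day 9 RA, RA then CHIR99021 and BMP4, untreated day 6 and untreated day 9 to CHIR99021 and BMP4 alone. For FOXA2 the group with RA then CHIR99021 and BMP4 came second, 0.45 ± 0.17 in log2 below day 6 RA (adjusted p = 0.0327), and day 9 RA and untreated day 6 were not told apart (0.17, adjusted p = 0.418). For FOXA3, day 6 RA and day 9 RA were not told apart (0.20, adjusted p = 0.158), nor were neighbours among the 3 lowest groups (adjusted p = 0.157 and 0.349). The first and last of those 3, RA then CHIR99021 and BMP4 and untreated day 9, did differ (0.38, edgeR adjusted p = 0.0165). SOX17 was highest in both day 6 groups, which were not told apart (0.07, adjusted p = 0.767), followed by RA then CHIR99021 and BMP4, 0.50 ± 0.17 lower than day 6 RA (adjusted p = 0.0153). For SOX7 only the step from untreated day 6 to the next group passed, and for SOX18 none did (adjusted p = 0.0725 to 0.94). Of all genes, day 6 untreated cells differed from day 9 RA for 62.8%, from CHIR99021 and BMP4 for 55.6% and from RA then these for 59.3%. Day 6 RA differed from CHIR99021 and BMP4 for 58.7% and from RA then these for 51.8%, and untreated day 9 from RA then these for 56.6%.

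Levels of different genes were compared only in TPM (a transcript's share after scaling by gene length and library, as deposited by the authors), as a description. FOXA transcripts summed to 262 ± 4.24 TPM in untreated day 6 cells, 633 ± 11.9 after RA, 79.2 ± 2.89 in untreated day 9 cells, 398 ± 22.0 at day 9 after RA, 76.2 ± 11.7 with CHIR99021 and BMP4 and 427 ± 5.76 with both (n = 3 each). Sums of untreated and treated libraries differ in read kind too, and TPM did not follow CPM between them. FOXA1 stood at 35.4 CPM and 23.3 TPM in untreated day 9 cells, and at 29.5 CPM and 23.1 TPM with CHIR99021 and BMP4. The part of read kind in these sums was not tested. The 2 groups with the highest day 9 sums differed in make-up: FOXA2 stood at 0.569 ± 0.0939 of FOXA1 after RA alone and at 1.09 ± 0.0464 after RA then CHIR99021 and BMP4, and the libraries did not overlap (0.495 to 0.675 against 1.06 to 1.14). FOXA3 held 42.7% ± 5.24 of the FOXA sum with CHIR99021 and BMP4 alone and 9.32% ± 1.15 with both. SOXF transcripts summed to 67.2 ± 11.3 TPM in untreated day 6 cells, 62.6 ± 5.29 after RA, 13.2 ± 5.03 in untreated day 9 cells, 10.4 ± 3.57 after RA, 21.7 ± 4.23 with CHIR99021 and BMP4 and 43.7 ± 0.353 with both. SOX17 was the largest part of that sum in every group mean, from 53.3% ± 9.35 with CHIR99021 and BMP4 alone to 88.5% ± 4.22 at day 6 after RA.

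**Figure D4:**
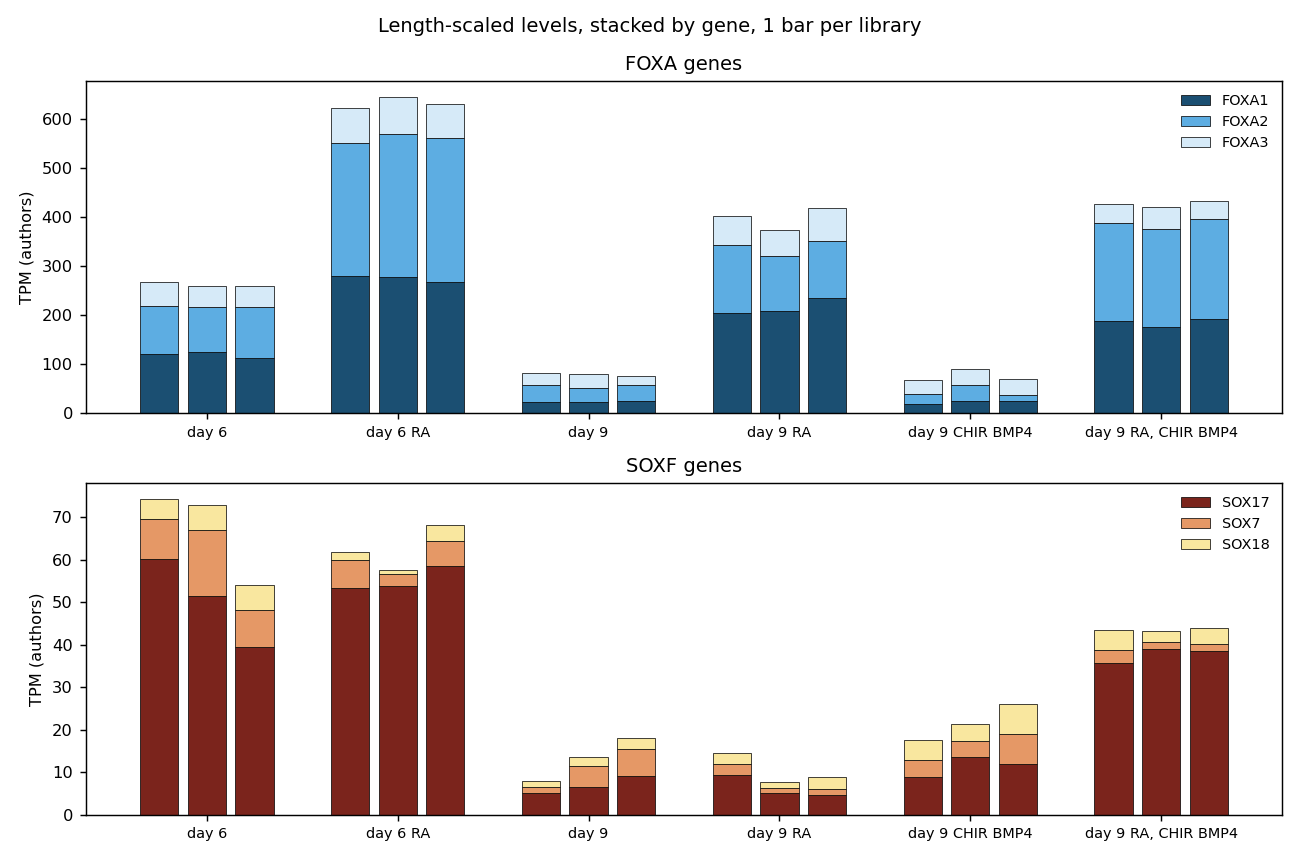
Deposited TPM of the FOXA genes (upper panel) and SOXF genes (lower panel), stacked by gene, with 1 bar per library grouped by condition. FOXA sums are lowest in the day 9 groups without RA (means of 76.2 and 79.2 TPM), and at day 9 the SOXF sum is highest after RA then CHIR99021 and BMP4 (43.7 TPM), where SOX17 is most of it.

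LINC00261, a long noncoding RNA gene that begins 2355 bases past the annotated end of FOXA2 on the same strand, had log2 changes of the same sign as FOXA2 in all 7 comparisons. It stood at 254, 260.1 and 229 CPM in untreated day 6 libraries and at 1127, 1153 and 979 CPM after RA. At day 9 it stood at 44.4, 41.4 and 51.0 CPM untreated and 322, 398 and 382 CPM after RA. With CHIR99021 and BMP4 it stood at 24.7, 38.8 and 11.7 CPM, and after RA then these signals at 853, 809 and 899 CPM. Among the libraries given CHIR99021 and BMP4 without RA, library 2 was highest and library 3 lowest for both LINC00261 and FOXA2. The log2 changes of LINC00261 exceeded those of FOXA2 with RA at day 6 (2.13 against 1.35), RA at day 9 (3.02 against 1.58) and RA before CHIR99021 and BMP4 (5.16 against 3.25), all called for both, and the difference between the genes was not tested. With read kind as a covariate LINC00261 was not called for RA at day 6 (2.51, adjusted p = 0.223) or day 9 (3.48, adjusted p = 0.14).

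TTC6, a tetratricopeptide repeat gene, begins 379 bases from the start of FOXA1 in RefSeq on the other strand, but the count table places it 177133 bases away, so the gene model counted was shorter at that end. TTC6 rose with RA at day 6 (20.4 ± 2.25 to 54.5 ± 3.24 CPM, log2 1.42 ± 0.12, adjusted p = 1.5e-09), at day 9 (7.54 ± 0.256 to 26.9 ± 4.03 CPM, 1.86 ± 0.15, adjusted p = 1.1e-10) and before CHIR99021 and BMP4 (7.73 ± 1.81 to 32.2 ± 1.78 CPM, 2.10 ± 0.13, adjusted p = 1.2e-11). It did not pass for CHIR99021 and BMP4, without RA (0.00, adjusted p = 1) or after it (0.24, adjusted p = 0.0833). With read kind as a covariate its change with RA was 1.76 at day 6 (adjusted p = 0.0601) and 2.28 at day 9 (adjusted p = 0.0481).

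**Figure D5:**
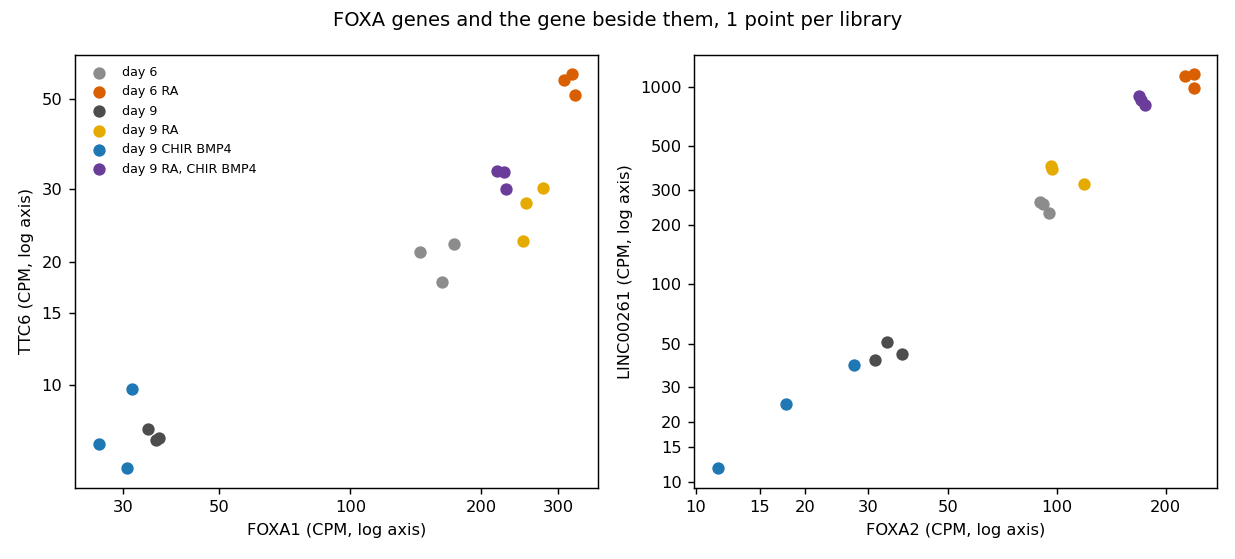
TTC6 against FOXA1 (left) and LINC00261 against FOXA2 (right), in CPM on log axes, with 1 point per library coloured by group. Groups with RA lie at the upper right, and the 3 libraries with CHIR99021 and BMP4 alone are spread along the lower left of the LINC00261 panel (11.7 to 38.8 CPM).

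Genes with the most similar pattern were ranked by Pearson's r of log2 CPM over the 18 libraries, which share group structure and read kind, among 12578 genes of at least 5 CPM in some group mean. For FOXA1 the first 5 were NXPH2 (r = 0.973), PTPRT (0.968), TTC6 (0.959), PERCC1 (0.958) and LINC00261 (0.958). For FOXA2 they were its neighbour LINC00261 (0.991), TTC6 (0.959), TMEM33 (0.952), PTPRT (0.948) and PTBP2 (0.946), and FOXA1 and FOXA2 had r = 0.943 with each other. For FOXA3 they were CTIF, ANTXR2, RGS5, CREM and CYFIP1 (0.929 to 0.939). For SOX17 they were LRIG1 (0.957), GCNT1 (0.949), PRDM1 (0.944), CHST6 (0.937) and DHTKD1 (0.932), and SOX17 had r = 0.483 with FOXA1 and 0.590 with FOXA2. For SOX7 the list was led by NT5E (0.916) and SALL1 (0.894) and held the endothelial and blood progenitor marker CD34 (0.887). For SOX18 the values were lower, from CDCA2 (0.865) to RASIP1 (0.789). PRDM1, a transcriptional repressor that is active in embryonic endoderm, had the same order of the day 9 groups as SOX17: 16.1 ± 2.39 CPM untreated, 6.58 ± 1.53 after RA, 28.8 ± 5.48 with CHIR99021 and BMP4 and 54.6 ± 2.08 with both.

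Among 17 other genes used across the endoderm (GATA and HNF factors, keratins and adhesion genes), 12 rose and 1 fell with RA at day 6 (median log2 change 1.08, against 0.00 over all genes) and 15 rose and 2 fell at day 9 (median 2.25, against -0.02). Of all genes, 48.7% were called for RA at day 6 and 65.1% at day 9. GATA6, a zinc-finger factor of early endoderm, went from 22.3 ± 2.16 to 198 ± 20.5 CPM at day 6 (log2 3.16). Under the read-kind covariate 4 of the 17 were called higher and 0 lower on each day (medians 0.97 and 1.90). With RA before CHIR99021 and BMP4, where 43.3% of all genes were called, 10 of the 17 rose and 3 fell (median 0.33, against -0.01), with GATA6 at 8.39 ± 1.59 and 71.6 ± 3.94 CPM. With CHIR99021 and BMP4 after RA, 2 rose and 12 fell (median -1.13, against 0.02), where 64.4% of all genes were called. HHEX, a homeobox factor of liver and thyroid buds, fell from 245 ± 42.4 to 16.4 ± 2.02 CPM there and PRDM1 rose from 6.58 ± 1.53 to 54.6 ± 2.08 CPM, so FOXA2 and SOX17 rose where most of this list fell.

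Of 16 tested genes of early definitive endoderm, the list that SOX17 itself would join, 2 rose and 9 fell with RA at day 6 (median -1.31), 5 rose and 7 fell with RA at day 9 (median -0.05), and 1 rose and 11 fell from day 6 to day 9 without treatment (median -1.22, against 0.00 over all genes). In that order, 48.7%, 65.1% and 46.9% of all genes were called, while for this list the covariate is given next. Under the read-kind covariate 1 of the 16 was called higher and 3 lower with RA at day 6 (median -1.76), and 0 higher and 1 lower at day 9 (-0.64). EOMES, a T-box factor that starts endoderm, went from 9.49 ± 5.78 to 1.58 ± 0.755 CPM with RA at day 6 (log2 -2.59), and OTX2, an anterior homeobox factor, from 482 ± 22.1 to 46.3 ± 0.519 CPM (-3.38). With CHIR99021 and BMP4 after RA, where 64.4% of all genes were called, 3 of the 16 rose and 9 fell. KIT, a receptor kinase of definitive endoderm, was among those that rose (27.5 ± 5.44 to 198 ± 11.2 CPM, log2 2.86), and CER1, a secreted antagonist, among those that fell (13.7 ± 3.78 to 1.45 ± 0.779 CPM, -3.51).

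Of 13 tested genes described as FOXA targets in gut-tube organs, 7 rose and 3 fell with RA at day 6 (median log2 change 2.13), where 48.7% of all genes were called. At day 9, 9 rose and 2 fell (3.78, with 65.1% of all genes called). With RA before CHIR99021 and BMP4, 8 rose and 1 fell (1.42, with 43.3% of all genes called). The covariate left 2 called higher and 0 lower at day 6 and 1 higher and 0 lower at day 9 (medians 2.51 and 3.51). LINC00261, the neighbour of FOXA2 described above, was among the 13, and its own log2 change was the median for RA at day 6 in both fits. Of the 13, 6 rose and 3 fell with CHIR99021 and BMP4 without RA (median 1.45, with 42.8% of all genes called), where FOXA1 and FOXA2 fell, and 1 was called higher and 0 lower with the covariate. TTR, a liver-made thyroid hormone carrier, went from 4.63 ± 1.12 to 145 ± 23.2 CPM with RA at day 6. SHH, a hedgehog ligand of foregut epithelium, went from 25.4 ± 19.6 to 516 ± 37.0 CPM with RA before CHIR99021 and BMP4 (log2 4.39), and NKX2-1, a lung and thyroid factor, from 10.7 ± 2.58 to 79.3 ± 8.66 CPM (2.93). With CHIR99021 and BMP4 after RA, 4 of the 13 rose and 5 fell (median -0.53), where 64.4% of all genes were called. NKX2-1 and SHH were among those that rose and SERPINA1, a liver protease inhibitor, fell from 27.9 ± 13.5 to 5.65 ± 0.506 CPM.

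The other genes of both families did not share one direction. Of 27 other forkhead genes tested, 4 rose and 12 fell with RA at day 6 (median -0.55), where 48.7% of all genes were called. At day 9, 3 rose and 16 fell (-0.73, with 65.1% of all genes called). With RA before CHIR99021 and BMP4, 9 rose and 7 fell (0.00, with 43.3% of all genes called). The covariate left 2 called higher and 4 lower at day 6, and 1 higher and 1 lower at day 9. FOXJ1, which drives motile cilia, went from 31.8 ± 9.03 to 279 ± 34.6 CPM with RA at day 6. Beside the same shares of all genes called, 5 of 15 other SOX genes tested rose and 4 fell with RA at day 6, 5 rose and 6 fell at day 9, and 6 rose and 5 fell before CHIR99021 and BMP4. The covariate left 1 of these called higher and 1 lower at day 6, and 3 higher and 1 lower at day 9. SOX2, which marks the dorsal foregut, went from 74.7 ± 0.752 CPM untreated to 14.9 ± 11.1 after RA and 23.6 ± 6.28 with CHIR99021 and BMP4 at day 9, and stood at 153 ± 6.05 CPM with both.

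FOXA2 also marks notochord and floor plate, and markers of these summed to 619 to 702 CPM after RA then CHIR99021 and BMP4 and to 38.0 to 207 CPM in the other groups. Most of that sum was SHH, which foregut epithelium also makes, and NTN1 (88.6 ± 6.98 CPM). The notochord factors TBXT and NOTO had group means of 0.07 to 0.32 CPM and of 0 to 0.06 CPM, and 2 to 5 of the 12 markers had no counts in the day 9 groups. Of 6 markers tested, 3 rose and 1 fell with RA before CHIR99021 and BMP4, where 43.3% of all genes were called. With these signals after RA, 2 rose and 2 fell (64.4%). Visceral and parietal endoderm markers, since extraembryonic endoderm expresses FOXA2 and SOX17 too, summed to 3501 to 6408 CPM over all libraries, mostly collagen and laminin genes, and CITED1 had no counts in 3 groups. Pluripotency markers summed to 2812 to 3422 CPM in untreated day 6 libraries and 1048 to 2471 CPM in the others. Most of each sum was LIN28A alone, with group means from 1018 CPM at day 9 after RA to 2890 CPM in untreated day 6 cells. The part of these cells in the FOXA and SOX17 differences was not tested.

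Since SOX7, SOX18 and SOX17 also mark endothelium, 22 endothelial and hemogenic markers were read beside them. All 22 were in the table, and GATA1 or LYVE1 or both, but no other, had no counts in a group. They summed to 545 to 730 CPM in untreated day 6 libraries, 240 to 334 after RA, 76.3 to 249 in untreated day 9 libraries, 131 to 177 after RA, 251 to 341 with CHIR99021 and BMP4 and 90.8 to 115 with both. Of 19 tested, 0 rose and 5 fell with RA at day 6, where 48.7% of all genes were called, and 1 rose and 3 fell at day 9 (65.1%). Under the covariate none of the 19 was called in either. From day 6 to day 9, 2 rose and 11 fell without treatment (46.9%) and 2 rose and 3 fell after RA (58.8%), and 0 rose and 8 fell with RA before CHIR99021 and BMP4 (43.3%). CDH5, an endothelial cadherin, stood at 42.5 ± 10.8 CPM in untreated day 6 cells and VWF, a clotting protein of endothelium, at 225 ± 39.5 CPM. In untreated day 9 library 1 the markers summed to 76.3 CPM, CDH5 stood at 1.41, SOX7 at 1.13 and SOX18 at 0.563 CPM, each the lowest of the 3 libraries. SOX7 was highest where the marker sum was highest, in untreated day 6 cells. SOX17 at day 9 was highest after RA then CHIR99021 and BMP4, where the marker sum was 90.8 to 115 CPM. Their part in the SOXF differences was not tested.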

How the data were processed

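Bulk RNA-seq of 18 libraries was analysed from 2 tables deposited by the authors, raw counts per gene and TPM per gene, with 35025 genes each. The submitters' processing notes name STAR 2.7.9 as the aligner and GRCh38 as the build. Libraries were made with a stranded mRNA kit, per the labels' protocols. Not given in the sources used here are the read counter, the annotation and whether strand was used. Groups and replicate numbers came from the labels. The members and gene lists were chosen with earlier results of these data known.

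The 36 rows without a symbol (0.00102% of counts) were left out. The main test was that of edgeR 4.0.16 in R 4.3.3. Its filterByExpr (minimum count 10) kept 15531 genes, libraries were scaled by TMM, and 1 robust quasi-likelihood fit held all 6 groups with 1 mean each. Within a comparison, Benjamini-Hochberg adjustment ran over all tested genes, with calls below 0.05. There were 7 comparisons of 3 against 3 libraries, 2 interactions and, for the order of groups, 15 pairs. CPM are scaled by TMM. Standard errors come from the fitted weights and posterior quasi-dispersion. Lists were described by counts and medians only, with up to 4 called genes of at least 5 CPM named per list and comparison, those with the largest changes; fewer are printed, and the group levels of list genes and markers (such as EPCAM, SOX2, CDH5, VWF, TBXT and PRDM1) were chosen after their values were seen. Similar patterns took the 5 genes with the highest r of log2 CPM (prior count 2), among genes of at least 5 CPM in some group, leaving out clone, LOC, antisense, divergent and pseudogene names.

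Alternatives were RLE and upper quartile factors, no filter, a CPM filter, DESeq2 1.42.0, limma 3.58.1 on log2(TPM + 1), a fit of the compared groups alone, the replicate number as a block, a read-kind covariate, untreated day 6 libraries 1 and 3 left out, and each library left out. The fit was also run on simulated counts in which few genes changed, only in the group given RA then CHIR99021 and BMP4, and read kind did not differ. That run did not test scaling or error control under the wide differences seen here. Promoter sequence and coordinates came from RefSeq (GRCh38.p14), where all 6 members matched by symbol and 2 had a promoter entry; motifs were counted on both strands. Totals of 5792269 to 25371403 counts limit SOX7 and SOX18 most. Some genes of these lists are not reported here by name.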

Additional observations from a re-analysis of the deposited data

Results flagged for a closer look

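The response to RA differed with the later signals for 3 of the 6 genes by the interaction test, which called 53.4% of all genes. On the log2 scale it was larger with CHIR99021 and BMP4 by 1.67 for FOXA2 and by 2.00 for SOX17, and the difference was -0.76 for FOXA3. For SOX17 the 3 libraries given RA and then CHIR99021 and BMP4 lay at 14.5 to 16.2 CPM, above every other day 9 library (1.89 to 5.65 CPM). Against RA alone, 69.3% of all genes had no overlap with this group, and the share against all other day 9 groups was not counted. None of these 3 differences was called with read kind as a covariate (edgeR adjusted p = 0.2 to 0.495). Read kind closely followed treatment in this test, so the loss of a call cannot tell read kind from treatment.

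The response to RA differed between day 9 and day 6 for 3 of the 6 genes by the same kind of test, which called 50.9% of all genes. The differences were 1.87 for FOXA1, 0.49 for FOXA3 and 1.65 for SOX18. For FOXA1 the untreated libraries differed between the days (145 to 173 CPM at day 6, 34.2 to 36.3 CPM at day 9) more than the RA libraries did (309.6 to 328 and 249 to 278 CPM). The differences of FOXA3 and SOX18 did not pass with 3 and 7 of the single libraries left out. That of SOX18 also did not pass with the read-kind covariate (edgeR adjusted p = 0.0592), DESeq2 (0.0813) or 4 other settings (0.0529 to 0.0727), nor that of FOXA3 with upper quartile factors (0.0575).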

How the results depend on the processing

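Of 846 member values under alternatives other than the read-kind covariate, 763 kept direction and side of the threshold, 45 lost and 9 gained a call and 29 turned sign. Those 29 were called neither before nor after. For 21 of them a library was left out, over ranges of -0.26 to 0.082 for SOX17 with RA at day 6, -0.45 to 0.26 for SOX18 with RA at day 9, -0.34 to 0.77 and -0.10 to 0.68 for SOX7 with CHIR99021 and BMP4 without and after RA, -0.24 to 0.68 for SOX18 at day 9 against day 6 after RA, -0.67 to 0.45 for SOX7 in the interaction with day, and -0.43 to 0.72 for SOX7 and -0.029 to 0.097 for FOXA1 in that with CHIR99021 and BMP4. The other 8 were, on TPM, SOX17 with RA at day 6 (0.15), SOX18 with RA at day 9 (0.065), and FOXA1 (-0.19) and SOX7 (-0.15) in the interaction with CHIR99021 and BMP4, and SOX7 in the interaction with day with upper quartile factors (-0.073), DESeq2 (-0.16), the compared groups alone (-0.0098) and the replicate block (-0.0010). Of 54 values with the covariate, 34 kept both, 12 lost a call and 8 turned sign: SOX17 (0.65) and SOX7 (1.32) with RA at day 6, SOX17 (0.53), SOX7 (1.93) and SOX18 (0.76) with RA at day 9, FOXA1 with CHIR99021 and BMP4 without RA (0.36), and FOXA1 (-0.61) and SOX7 (-3.10) in the interaction with these signals. The covariate gave 720 genes and 1 member for RA at day 6, 761 and 1 for RA at day 9, 142 and 0 for CHIR99021 and BMP4 without RA, and 852 and 0 for the interaction of RA with these signals, in all of which read kind closely followed treatment. For untreated day 9 against day 6 it gave 4825 genes, and leaving out untreated day 6 libraries 1 and 3 gave 4495. With upper quartile factors 1 member was called for the interaction of RA with day, and in a fit of the compared groups alone 1 for CHIR99021 and BMP4 without RA. On TPM 4 groups kept their rank for SOX17, 4 for SOX7 and 3 for SOX18. Apart from the fits that use fewer libraries, the cause was not tested. Leaving out 1 library gave these ranges of genes and members called: RA at day 6, 6580 to 7000 and 4 to 5; RA at day 9, 9324 to 9791 and 3 to 4. CHIR99021 and BMP4 without RA gave 5568 to 6439 and 1 to 4 (1 without untreated day 9 library 1), and after RA 9087 to 9687 and 3 to 5. RA before these signals gave 5534 to 6364 and 3 to 4. Day 9 against day 6 gave 6287 to 6910 and 4 to 6 untreated (4 without untreated day 9 library 1), and 8350 to 8866 and 3 to 4 after RA. The interaction with CHIR99021 and BMP4 gave 7609 to 8198 and 3, and that with day 7348 to 7829 and 1 to 3 (1 without day 9 RA library 3). The replicate numbers were not taken as pairs: over 45 same-number pairs the correlation of deviations ran from -0.135 to 0.337, and 10 of 18 libraries correlated best with their own number. With the replicate number as a block 7609 genes were called for RA at day 6 in place of 7571, SOX7 was not called for RA before CHIR99021 and BMP4 (-1.24, edgeR adjusted p = 0.0618) or day 9 against day 6 after RA (-1.51, adjusted p = 0.0506), and SOX18 was called for CHIR99021 and BMP4 after RA (0.94, adjusted p = 0.0485). DESeq2 also called SOX7 lower with RA at day 9 (-1.51, adjusted p = 0.00951). Depth limits SOX7 and SOX18, with 17 to 153 counts in the 3 libraries of a group.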
